A study of Homo sapiens with 6 samples.

Results

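The collagen chains measured here are the genes whose symbol has the form COL, a type number, A and a chain number. They were selected by that form of the symbol alone, among array probe sets annotated to 1 gene symbol, and each gene was represented by the probe set with the highest mean over all arrays. This gave 43 collagen genes from 112 probe sets, of 19775 genes in all. COL17A1 was not analysed here, because its annotation did not meet that rule. Expression was measured in SUM149, an established human cell line of inflammatory breast cancer, on 6 Affymetrix HG-U133 Plus arrays. For the 3 siControl arrays the cells received a non-targeting siGENOME siRNA pool, and for the 3 siTIG1 arrays an ON-TARGET Plus pool against TIG1, the retinoid-responsive gene now called RARRES1. Both pools were delivered with oligofectamine at 200 nmol/L into cells kept in serum with insulin and hydrocortisone, and the sources used here do not give the time between transfection and harvest. The groups therefore differ in the siRNA product line as well as in the target, and all results come from 1 cell line. Whether a replicate is a culture of its own is not stated in the labels. The p-values therefore cover the spread among these samples alone, and that spread may be technical.

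Collagens are extracellular proteins built from 3 polypeptide chains that wind into a triple helix, and some types combine chains of different genes while others use a single kind of chain. Fibrillar collagens form the tensile fibers of connective tissue, network collagens form the sheets of basement membranes, and the FACIT group (fibril-associated collagens with interrupted triple helices) coats fibrils. Beaded-filament collagens such as collagen VI link cells to the matrix around them, and transmembrane collagens stay anchored in the cell surface. Most fibrillar collagen of a breast tumor is made by stromal fibroblasts, whereas epithelial cells typically make basement membrane and anchoring collagens.

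The arrays matched an epithelial cell line. EPCAM read 14.25 to 14.46 and KRT18 13.59 to 13.79 over the 6 arrays on the log2 scale, and of the hormone receptor and HER2 genes PGR read 6.85 to 6.98, ESR1 8.31 to 9.03 and ERBB2 9.27 to 9.41. TIG1 was lower on average in the siTIG1 group on each of its 3 probe sets (log2 differences of -1.28, -1.24 and -0.83), but none passed the test (limma adjusted p of 0.19 to 0.26 over all probe sets). On the last of these the array labelled siTIG1 replicate 1 read 12.69, against 12.65 and 12.61 on siControl replicates 1 and 2, so directions below follow labels that this array only partly bears out. The siControl replicate 3 array stood apart: it correlated with the other controls at 0.985, whereas these correlated with each other at 0.998. On that array the 3 TIG1 probe sets read 12.58, 13.55 and 13.74. The other controls read 10.92 to 11.04, 11.88 to 11.89 and 12.61 to 12.65. Part of the TIG1 difference therefore rests on siControl replicate 3, and without it the last probe set differed by -0.46. For ACTB the gap from the 5′ to the 3′ control probe set, a measure that grows as RNA degrades, was 2.62 to 3.21 on the control arrays and 2.14 to 2.34 on the siTIG1 arrays. The same gap for GAPDH was 0.46 to 0.57 and 0.46 to 0.47. The part of RNA quality in the results was not tested.

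Of the 43 collagen genes, 4 rose and 3 fell in the siTIG1 group and 36 did not pass the test. COL13A1 and COL6A3 fell by the largest amounts and COL7A1 by a small one, and COL6A1, COL27A1, COL4A5 and COL5A1 rose by less than 1 log2 unit. The test was limma's moderated fit over all genes, 2-sided, with Benjamini-Hochberg adjustment over 19775 genes and a threshold of 0.05. The 7 called genes are 16.3% of the collagens, beside 7.32% of all genes tested. By direction, 9.30% of the collagens were called higher, beside 3.15% of all genes, and 6.98% lower, beside 4.17%. The median difference over the collagens was 0.01 on the log2 scale, and 0.02 over all genes. In 26 of the 43 the difference was smaller than 0.1 in size. The 2 groups of arrays did not overlap in 12 collagens, 27.9%, which lies near the 32.0% of all genes. Signals are log2 values with no detection call. In 26 collagens both group means lay under the median gene level of 8.74, and a signal that low is not shown to lie above background.

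**Figure D1:**
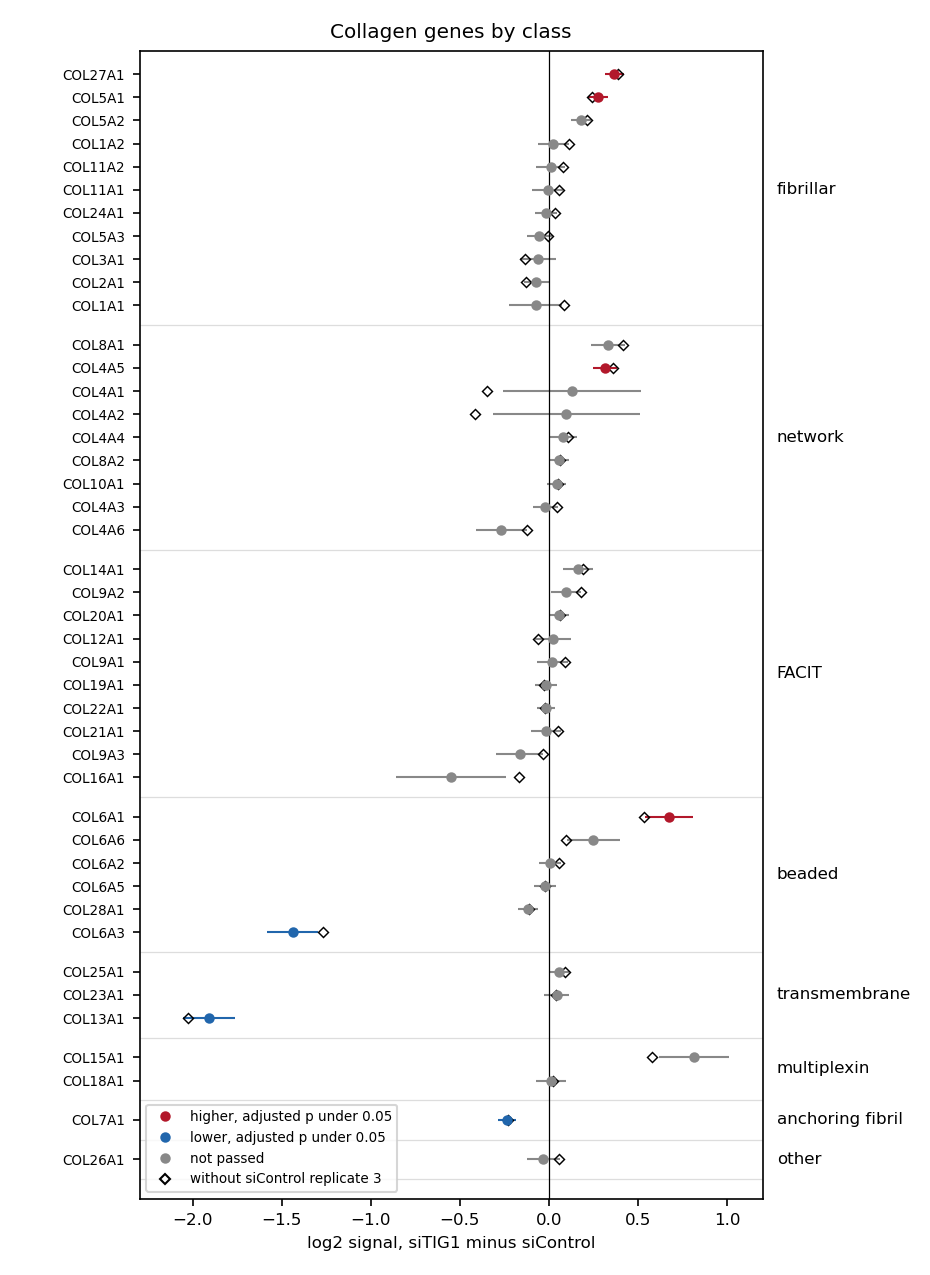
Log2 difference, siTIG1 minus siControl, of each of the 43 collagen genes grouped by class. Filled points with bars give the difference and its standard error over 3 against 3 arrays, colored by the test, and open diamonds give the difference without the siControl replicate 3 array. COL13A1 (-1.91) and COL6A3 (-1.44) lie far to the left of the other chains, and the diamonds of COL4A1 and COL4A2 lie on the other side of 0 from their points.

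Call stability separated the 7 genes. With any 1 of the 6 arrays left out, COL13A1 and COL6A3 kept their call (highest limma adjusted p of 0.028 and 0.045). The other 5 calls were each lost without any single array other than siControl replicate 3. Calls over all genes also dropped under these omissions, to between 1.12% and 3.03%, from 7.32% with all arrays. Over those 5 omissions the limma adjusted p was 0.054 to 0.085 for COL27A1, 0.055 to 0.17 for COL5A1, 0.067 to 0.16 for COL6A1, 0.092 to 0.18 for COL7A1 and 0.12 to 0.18 for COL4A5. Without the array labelled siTIG1 replicate 1, no collagen rose and 2 fell, while 2.24% of all genes were called. Without siControl replicate 3, 8 rose and 6 fell, while 27.2% of all genes were then called, 12.3% higher and 14.9% lower.

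Among the transmembrane chains, COL13A1 fell and the other 2 measured did not pass. COL13A1 encodes collagen XIII, a single-pass membrane protein found at cell-matrix adhesions. Its signal was 9.12, 9.15 and 8.80 on the control arrays of replicates 1, 2 and 3, and 7.21, 7.27 and 6.85 on the siTIG1 arrays. All 3 siTIG1 arrays lay more than 1 log2 unit below every control. The means were 9.02 ± 0.20 and 7.11 ± 0.23 (SD, n = 3 each). This is a difference of -1.91 ± 0.14 on the log2 scale (SE, limma adjusted p = 0.0026), or 3.76-fold lower. The siTIG1 mean lies under the median gene level, and without a detection call its fold is not shown to be measured on both sides. The gene's other probe sets did not show the fall: they differed by 0.07 and -0.12 and did not pass (limma adjusted p of 0.75 and 0.55 over all probe sets). Both of these have names ending in x_at, the platform's mark for probes that can bind several transcripts, and averaging the 3 probe sets gave -0.65 (limma adjusted p = 0.0039). COL25A1, a neuronal transmembrane collagen, differed by 0.06 ± 0.05 (SE, limma adjusted p = 0.58).

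**Figure D2:**
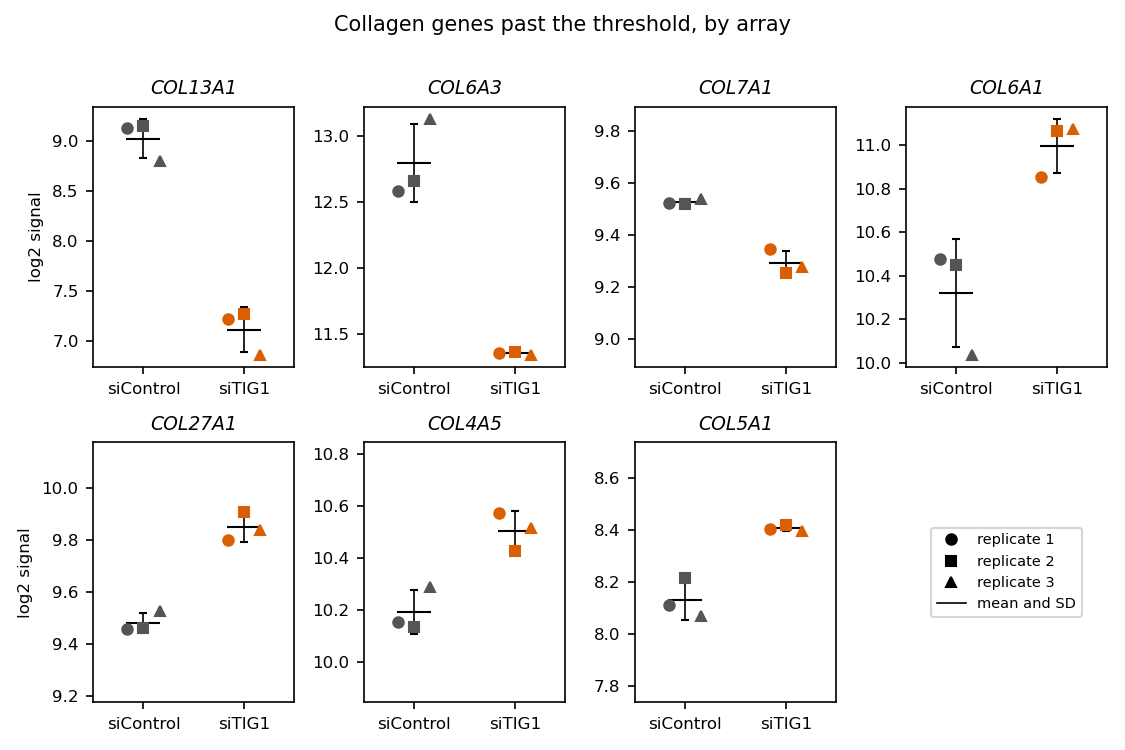
Log2 signal of the 7 collagen genes past the threshold, by array, with replicate numbers as symbols and the mean and SD of each group as bars; each panel has its own axis, spanning at least 1 log2 unit. The groups do not overlap in any of the 7, and the gap is widest for COL13A1 and COL6A3. On the siControl replicate 3 array COL6A3 is the highest and COL6A1 the lowest of all arrays.

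In the beaded-filament class the chains of collagen VI received different calls. COL6A3 fell, COL6A1 rose, and COL6A2, COL6A5 and COL6A6 did not pass. Collagen VI is assembled from an α1 and an α2 chain and 1 more, most often α3, the product of COL6A3. COL6A3 read 12.59, 12.66 and 13.13 on the control arrays and 11.36, 11.37 and 11.34 on the siTIG1 arrays. The siTIG1 arrays were nearly identical, and siControl replicate 3 was the highest. The difference was -1.44 ± 0.14 (SE, log2 scale, limma adjusted p = 0.0053), 2.71-fold lower, and -1.27 without siControl replicate 3. This gene has 1 probe set.

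COL6A1 moved the other way. It read 10.48, 10.45 and 10.04 on the control arrays and 10.85, 11.06 and 11.07 on the siTIG1 arrays, so that every siTIG1 array was above every control, siControl replicate 3 being the lowest. The log2 difference was 0.67 ± 0.13 (SE, limma adjusted p = 0.037), 1.60-fold higher. Of the 8 COL6A1 probe sets, 6 had a positive difference and only the representative one passed; averaged over all 8 the difference was 0.13 and did not pass (limma adjusted p = 0.13). COL6A2, the α2 chain, differed by 0.01 ± 0.06 (SE) on its representative probe set, and by 0.49 ± 0.15 on the other, which did not pass (limma adjusted p = 0.13 over all probe sets). Within an array, COL6A3 changed against COL6A1 by -2.11 on the log2 scale and against COL6A2 by -1.45, with no overlap between groups. Exact 2-sided permutation gave p = 0.1 for both, the smallest that 3 against 3 arrays allow, and 0.15 when adjusted over the 6 chain pairs compared. For COL6A3 against COL6A1 the non-overlap and this p were fixed in advance, because neither chain overlapped between groups and their directions were opposite. That comparison adds no evidence to the calls of these chains. The alternatives to α3, COL6A5 and COL6A6, differed by -0.02 ± 0.06 and 0.25 ± 0.15 (SE), both from low signals. COL28A1, whose protein resembles collagen VI chains in its von Willebrand domains, differed by -0.12 and did not pass.

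**Figure D3:**
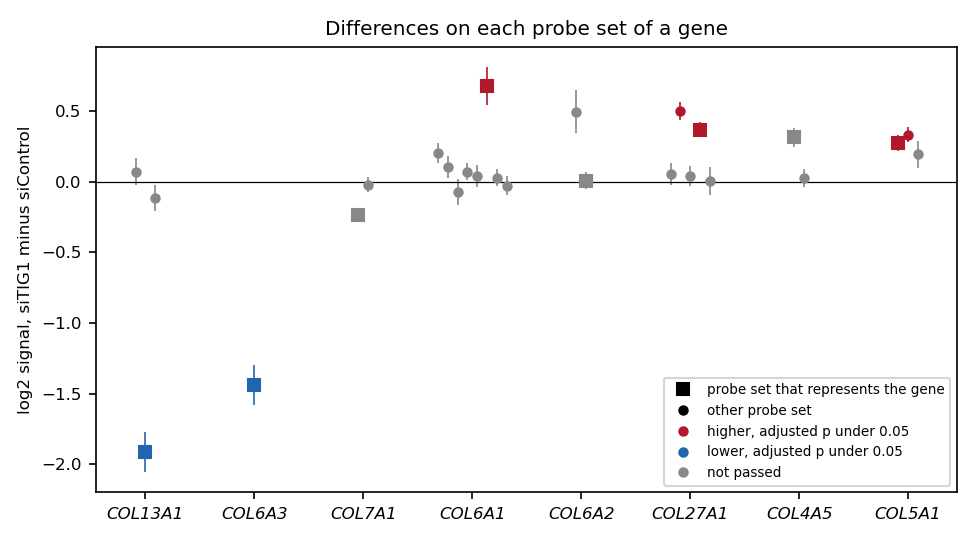
Log2 difference, siTIG1 minus siControl, on every probe set of 8 collagen genes, with standard errors; squares mark the probe set that represents the gene, and colors give the test over all probe sets. Of the COL13A1 and COL6A1 probe sets only the representative ones passed, 2 of the 5 COL27A1 and 2 of the 3 COL5A1 probe sets passed, and the COL7A1 and COL4A5 squares did not pass in this larger fit.

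The sequences before the start sites of the genes with the largest falls are given because no other collagen fell as far. They are the 250 bases upstream of the RefSeq start in build GRCh38.p14, on chr10:69801656-69801905 (plus strand) for COL13A1 and chr2:237414165-237414414 (minus strand) for COL6A3. Capitals mark matches, on either strand, to TATAAA, the core of the TATA box. They also mark the letters CCAAT. A GC box was searched as the letters GGGCGG. An AP-1 site was searched as the letters TGANTCA.
COL13A1: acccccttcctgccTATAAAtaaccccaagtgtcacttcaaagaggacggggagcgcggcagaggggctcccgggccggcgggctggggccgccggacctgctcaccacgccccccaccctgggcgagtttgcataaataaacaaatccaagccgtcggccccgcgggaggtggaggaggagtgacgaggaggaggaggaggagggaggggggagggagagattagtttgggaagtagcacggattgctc
COL6A3: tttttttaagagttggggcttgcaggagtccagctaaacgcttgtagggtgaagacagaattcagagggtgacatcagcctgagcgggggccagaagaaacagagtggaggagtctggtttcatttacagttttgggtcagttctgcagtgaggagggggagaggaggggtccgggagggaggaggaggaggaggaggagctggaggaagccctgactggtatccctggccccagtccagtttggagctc
COL13A1 holds 1 match to TATAAA and none to the other 3 motifs, and COL6A3 holds none of the 4 in this window. Among all 35116 RefSeq promoter windows of this length 42.6% held GGGCGG, 32.0% CCAAT, 10.7% TATAAA and 6.57% TGANTCA. Of the 43 windows of the 31 collagen genes in that table, 55.8% held GGGCGG, 25.6% CCAAT, 16.3% TATAAA and 2.33% TGANTCA. A match describes letters only.

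COL7A1, the single anchoring-fibril collagen, fell slightly. Its protein ties the epithelial basement membrane to the matrix beneath it. The signal was 9.53, 9.52 and 9.54 on the control arrays and 9.35, 9.26 and 9.28 on the siTIG1 arrays, with no overlap and a control SD of 0.01. The log2 difference was -0.24 ± 0.05 (SE, limma adjusted p = 0.041), 1.18-fold lower. The gene's other probe set differed by -0.02, and the mean of both by -0.13 (limma adjusted p = 0.12). Under quantile normalization the call was lost (limma adjusted p = 0.071).

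Of the 11 fibrillar chains COL27A1 and COL5A1 rose, none fell, and 9 did not pass; the class median was -0.01. COL27A1 encodes a fibrillar collagen of cartilage. It read 9.46, 9.46 and 9.53 on the control arrays and 9.80, 9.91 and 9.84 on the siTIG1 arrays. The siTIG1 values all lay above the controls, by 0.37 ± 0.05 on the log2 scale (SE, limma adjusted p = 0.015). All 5 of its probe sets had a positive difference and 2 passed, while their mean differed by 0.19 (limma adjusted p = 0.063). COL5A1, the chain of collagen V that nucleates collagen I fibrils, read 8.11, 8.22 and 8.07 on the control arrays and 8.40, 8.42 and 8.40 on the siTIG1 arrays. The 2 groups did not overlap, and the difference was 0.27 ± 0.06 (SE, limma adjusted p = 0.039), positive on all 3 probe sets and past the threshold on 2. Both group means, 8.13 and 8.41, lie under the median gene level, so this signal is not shown to lie above background.

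The partners of COL5A1 did not pass. COL5A2, which joins it in the main form of collagen V, read 8.22, 8.23 and 8.32 on the control arrays and 8.38, 8.49 and 8.44 on the siTIG1 arrays. These do not overlap either, with a difference of 0.18 ± 0.06 (SE, limma adjusted p = 0.12; 0.017 without siControl replicate 3). COL5A3 differed by -0.05 ± 0.07 (SE). Against COL5A2, COL5A1 changed by 0.09 within an array (exact 2-sided permutation p = 0.3). Neither of the collagen I chains, the main product of fibroblasts, passed: COL1A1 differed by -0.07 ± 0.15 (SE) and COL1A2 by 0.03 ± 0.09 (SE). The COL1A2 means, 8.27 in the control group and 8.29 in the siTIG1 group, lie under the median gene level. COL3A1 differed by -0.06. The remaining fibrillar chains, COL2A1, COL11A1, COL11A2 and COL24A1, lay between -0.07 and 0.01.

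Among the 9 network collagens COL4A5 rose and 8 did not pass. COL4A5 encodes the α5 chain of collagen IV, which assembles either with α3 and α4 or with α6. It read 10.15, 10.14 and 10.29 on the control arrays and 10.57, 10.43 and 10.52 on the siTIG1 arrays, a difference of 0.31 ± 0.07 (SE, limma adjusted p = 0.046). The call lies close to the threshold and was lost under median centring (limma adjusted p = 0.054). Its other probe set differed by 0.03, and the mean of both by 0.17. The partner chains COL4A3, COL4A4 and COL4A6 differed by -0.02 ± 0.07, 0.08 ± 0.07 and -0.27 ± 0.14 (SE), and none passed. COL8A1, a short-chain network collagen of vessel walls and the cornea, read 8.44, 8.65 and 8.80 on the control arrays and 9.01, 8.94 and 8.94 on the siTIG1 arrays. Its groups did not overlap, but the difference of 0.33 ± 0.10 (SE) missed the threshold (limma adjusted p = 0.10) and reached it without siControl replicate 3 (limma adjusted p = 0.0017).

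The 6 chains of collagen IV lie in 3 pairs of neighboring genes that are read outward from a shared stretch of DNA, with 126 bases between the starts of COL4A1 and COL4A2, 418 for COL4A3 and COL4A4, and 379 for COL4A5 and COL4A6. The first stretch is shown because its genes had like values on each array, and the 250 bases before COL4A5 because the genes on either side had differences of opposite sign. In GRCh38.p14 they are chr13:110307158-110307283, and chrX:108439588-108439837, both on the plus strand, with the same motifs in capitals.
COL4A1-COL4A2: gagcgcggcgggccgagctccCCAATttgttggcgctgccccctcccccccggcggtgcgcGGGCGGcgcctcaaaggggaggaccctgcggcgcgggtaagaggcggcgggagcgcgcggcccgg
COL4A5: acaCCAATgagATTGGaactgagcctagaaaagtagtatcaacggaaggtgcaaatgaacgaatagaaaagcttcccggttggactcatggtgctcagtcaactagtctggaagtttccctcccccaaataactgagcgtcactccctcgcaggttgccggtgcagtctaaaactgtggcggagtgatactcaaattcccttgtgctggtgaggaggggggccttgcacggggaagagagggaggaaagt
The COL4A1-COL4A2 stretch holds 1 CCAAT and 1 GGGCGG match, and the COL4A5 stretch 2 CCAAT matches, 1 on each strand.

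COL4A1 and COL4A2, singled out after their values were seen, encode the α1 and α2 chains of the most widespread collagen IV. COL4A1 read 11.41, 11.43 and 9.98 on the control arrays and 10.93, 11.10 and 11.19 on the siTIG1 arrays. COL4A2 read 11.52, 11.59 and 10.01, against 11.17, 11.14 and 11.11. Both genes were high on siControl replicates 1 and 2, lowest by far on siControl replicate 3, and in between on all siTIG1 arrays. Their differences over all arrays were 0.13 ± 0.39 and 0.10 ± 0.41 (SE), and neither passed (limma adjusted p of 0.89 and 0.92). Without siControl replicate 3 they were -0.35 and -0.42, and both passed as lower (limma adjusted p of 0.0064 and 0.00039). The direction for these chains therefore depends on 1 array. Within an array COL4A1 changed against COL4A2 by 0.03 (exact 2-sided permutation p = 0.9). COL4A5 against COL4A6 changed by 0.58 on the representative probe sets, with no overlap between groups. Exact 2-sided permutation gave p = 0.1, the smallest possible, and 0.15 adjusted over the 6 pairs. The pairs were not tested against each other.

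None of the 10 FACIT chains passed, and their median difference was 0.0019. COL16A1, which encodes a collagen that links fibrils and microfibrils, had the largest negative difference. It read 9.62, 9.64 and 10.77 on the control arrays and 9.43, 9.49 and 9.45 on the siTIG1 arrays. Every siTIG1 array lay below every control, but siControl replicate 3 stood far above the others, and the difference of -0.55 ± 0.31 (SE) missed the threshold (limma adjusted p = 0.36). Without that array it shrank to -0.17 and passed (limma adjusted p = 0.034). COL14A1 had the largest positive difference, 0.16 ± 0.09 (SE, limma adjusted p = 0.34). COL12A1, a FACIT chain of collagen I fibrils, read 11.06 to 11.39 over the controls and 11.14 to 11.34 over the siTIG1 arrays. It differed by 0.02 on this representative probe set. All 5 of its probe sets had a positive difference, up to 0.37, and none passed.

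The multiplexins carry fragments with anti-angiogenic activity at their ends and lie in basement membrane zones. COL15A1 had the largest positive difference of all the collagens and did not pass. It read 6.65, 6.56 and 5.89 on the control arrays and 7.20, 7.23 and 7.12 on the siTIG1 arrays, low signals whose groups did not overlap. The difference was 0.81 ± 0.20 (SE, limma adjusted p = 0.064), and 0.58 without siControl replicate 3 (limma adjusted p = 9.3e-05). COL18A1, the precursor of endostatin, differed by 0.01 ± 0.08 (SE). COL26A1, placed in no class, differed by -0.03 ± 0.09 (SE), and its sign changed with the choice of probe set.

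**Figure D4:**
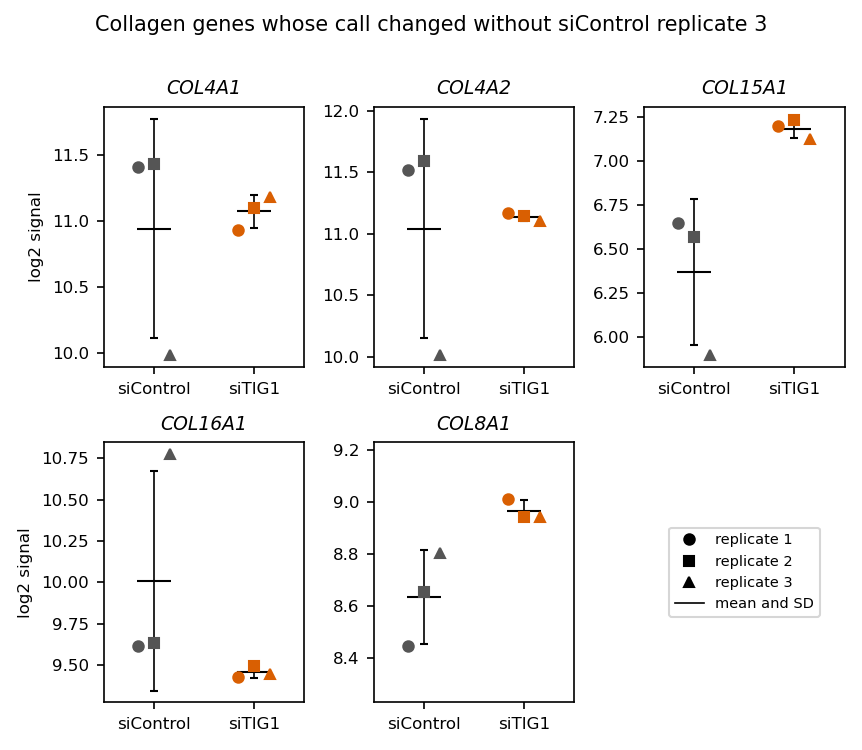
Log2 signal of 5 collagen genes by array, each of which was called without the siControl replicate 3 array and not with it; symbols give the replicate number and bars the mean and SD of each group, and each panel has its own axis. That array (gray triangle) is the lowest for COL4A1, COL4A2 and COL15A1 and the highest for COL16A1.

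The spread within groups followed this array. The range over 3 arrays had a median of 0.22 over the collagens in the control group and 0.14 in the siTIG1 group, and its highest values were 1.58 and 0.41. Against the mean of the other controls, siControl replicate 3 differed by over 0.5 in 5 collagens, 2 upward and 3 downward (11.6%, beside 14.0% of all genes). The 7 genes called only without that array were COL15A1, COL8A1, COL5A2 and COL9A2 as higher and COL4A1, COL4A2 and COL16A1 as lower. All 7 called with it also passed without it, with the same sign.

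Probe sets of a gene did not always share a sign. Of the 35 collagens with several probe sets, 19 had the same sign on all of them. The 7 pairs of members that neighbor each other among protein-coding genes were also mixed. In 2 pairs, COL4A1 with COL4A2 and COL6A1 with COL6A2, both differences were positive, and in the other 5 the signs were opposite. No neighboring pair had both genes past the threshold. The 19 collagens outside the naming rule differed by -0.16 to 0.10, and none passed (lowest limma adjusted p of 0.28).

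Genes that make, bind or remodel collagen were counted in lists chosen for function. These counts, too, stand beside 3.15% of all genes called higher and 4.17% lower, and those without siControl replicate 3 beside 12.3% higher and 14.9% lower. Of 25 collagen-modifying enzymes and chaperones 3 rose, 1 fell and 21 did not pass, with a median log2 difference of 0.18. The prolyl hydroxylase subunit P4HA2 rose by 0.76 ± 0.06 (SE, limma adjusted p = 0.0029), the lysyl hydroxylase PLOD1 by 0.76 ± 0.13 and the collagen chaperone SERPINH1 by 0.60 ± 0.12, whereas the ion channel gene TMEM38B, which collagen processing in bone requires, fell by 0.41. The size of the P4HA2 rise depends on the probe set: averaged over its probe sets it was 0.21 (limma adjusted p = 0.041). TMEM38B was represented by an x_at probe set, and with such probe sets taken last it differed by -0.03 and did not pass (limma adjusted p = 0.87). Of these 4 calls, that of P4HA2 alone held under each omission of 1 array; the other 3 were lost without any array other than siControl replicate 3 (highest limma adjusted p of 0.12 for PLOD1, 0.17 for SERPINH1 and 0.092 for TMEM38B). Without siControl replicate 3, 13 rose and 1 fell. Of 15 procollagen proteinases and cross-linking enzymes, LOXL1, a lysyl oxidase family member, fell (-0.95 ± 0.16 SE, limma adjusted p = 0.021) and 14 did not pass. That call was lost without any array other than siControl replicate 3 (limma adjusted p of 0.065 to 0.11), and without siControl replicate 3 itself 3 fell.

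Basement membrane and hemidesmosome genes, the partners of COL7A1 and collagen IV, included 5 of 18 that fell and none that rose. Over all genes 4.17% were called lower and 3.15% higher. The list had a median of -0.23 on the log2 scale. The integrin subunit ITGA6 (-1.05 ± 0.07 SE, limma adjusted p = 0.0019) and the laminin chain LAMB3 (-1.53 ± 0.14 SE, limma adjusted p = 0.0041) fell, and both calls held under each omission of 1 array. The plakin PLEC (-0.63 ± 0.09 SE) and the laminin chain LAMB1 (-0.40 ± 0.06 SE) also fell, with highest limma adjusted p of 0.088 and 0.084 when 1 array was left out. AGRN, which encodes agrin, completed the 5 (-0.40 ± 0.07 SE). Without siControl replicate 3, 7 fell and 2 rose, beside 14.9% and 12.3% of all genes. Without siControl replicate 2, siTIG1 replicate 2 or siTIG1 replicate 3, 2 fell in each case, while 2.78%, 1.12% and 1.32% of all genes were called. Without siTIG1 replicate 1, 3 fell and 1 rose, beside 2.24% of all genes called. Of 12 collagen receptor genes CD44 fell (-0.84 ± 0.11 SE, limma adjusted p = 0.013) and 11 did not pass. The CD44 call was lost without siControl replicate 2 or any siTIG1 array (limma adjusted p of 0.052 to 0.072), and its averaged probe sets differed by -0.28 (limma adjusted p = 0.23). Omitting siControl replicate 3 left 3 receptor genes lower and 1 higher. Of 12 collagen-degrading proteases MMP2 (0.54 ± 0.11 SE) and CTSB (0.28 ± 0.06 SE) rose, and both calls were lost without any array other than siControl replicate 3 (highest limma adjusted p of 0.16 each). Without that array 5 proteases rose and 1 fell. Averaged over probe sets neither passed: MMP2 differed by 0.18 and CTSB by 0.22 (limma adjusted p of 0.057 and 0.13).

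Marker genes of fibroblasts, the main collagen-producing cells of a tumor, were measured beside the collagens. Of 12 such markers without collagens, DCN, the proteoglycan decorin, rose by 1.63 ± 0.15 (SE, limma adjusted p = 0.0044) and 11 did not pass. The DCN call held under each omission of 1 array, and without siControl replicate 3, 3 of these markers rose and 1 fell. The summed signal of the list, on the log2 scale, was 12.40 to 12.51 on the control arrays and 12.97 to 13.19 on the siTIG1 arrays. A sum of linear signals is weighted to the brightest members, which in the siTIG1 group were FAP and DCN. The median log2 difference of the 12 markers was 0.04. LUM had a mean of 5.01 in the control group and 5.01 in the siTIG1 group, PDGFRB 7.72 and 7.64, and TCF21 7.16 and 7.15. Among brighter members, named after their values were seen, FAP, which is also in the protease list, had means of 10.81 and 11.73 and S100A4 of 9.86 and 9.10. Neither overlapped between groups and neither passed (limma adjusted p of 0.10 and 0.11). Once siControl replicate 3 was omitted, FAP differed by 0.60 and passed as higher, as did ACTA2 by 0.32, and S100A4 by -0.50 as lower (limma adjusted p of 0.00017, 0.0019 and 0.00041). The list's part in the collagen differences was not tested. None of 10 leukocyte or 10 endothelial markers passed in the limma fit. Without siControl replicate 3, 2 leukocyte markers rose. All marker counts here stand beside 3.15% of all genes called higher and 4.17% lower. Those without siControl replicate 3 stand beside 12.3% higher and 14.9% lower. Of 9 epithelial and basal markers KRT19, a keratin, rose by 1.00 ± 0.15 (SE, limma adjusted p = 0.016), a call lost without any 1 siTIG1 array; averaged over its probe sets it rose by 0.56. EGFR, the growth factor receptor gene, had no overlap between groups but did not pass at -1.43 ± 0.46 (SE, limma adjusted p = 0.14). Without siControl replicate 3, KRT19, CLDN4, KRT5, KRT8 and CDH1 rose and EGFR and KRT14 fell, 5 and 2 of the 9. In bulk samples, fewer cells of a type and less RNA per cell cannot be told apart.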

How the data were processed

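Each probe set has 1 log2 value for each array in the table that the authors deposited. The submitters' processing notes name MAS5 and RMA without saying which was used for these values. The log base was taken as 2 from the range of 4.28 to 15.59. Once sorted, the arrays came within 0.093 of each other throughout, so no further normalization was applied. Such normalization hides a shift of most genes one way. Of 54675 probe sets, 62 controls were left out, 41091 carried 1 symbol, 1801 several and 11721 none listed. Symbols were updated by gene number to RefSeq (GRCh38.p14), which held 19735 of 19775 genes.

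Each gene was represented by its probe set with the highest mean. The test of siTIG1 against siControl was the 2-sided moderated test of limma 3.58.1 under R 4.3.3, fitted without a block. The Benjamini-Hochberg adjustment ran over all genes, with a threshold of 0.05; all adjusted p-values come from limma unless said otherwise. The fit was tested on simulated data with independent noise of equal spread in both groups. No simulated array stood apart as siControl replicate 3 does, so that test does not cover this feature. The number of arrays limits the precision. Members and lists were chosen with earlier results of these data known. Named collagens were those past the threshold, the extremes of each class and chains that share a trimer or gene pair with a called one; COL4A1, COL4A2 and members that complete a count were named after their values were seen. The results were recomputed with quantile normalization, with median centring, without dim genes (both group means under the median), and with other choices of probe set, all probe sets, a trended robust variance, a replicate block and leaving out each array.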

Additional observations from a re-analysis of the deposited data

How the results depend on the processing

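COL13A1 and COL6A3 were lower and past the threshold under each of the 15 alternatives run. The differences of COL13A1 ranged from -2.02 to -0.65, the smallest when its probe sets were averaged. Not all of these alternatives could change the result. COL6A3 has 1 probe set, and each choice of a single probe set kept the representative one of COL13A1. None used its other probe sets alone, which did not show the fall. With 1 array left out, 0 to 8 collagens rose, 2 to 6 fell, and 222 to 5375 genes of all passed; in every omission but that of siControl replicate 3 the collagen counts were 0 and 2. Averaging probe sets left 1 collagen higher and 2 lower, beside 6.31% of all genes called. Deviations of same-numbered replicates from their group means were weakly correlated (-0.081, 0.023 and -0.039). With 3 arrays per group this cannot settle whether the replicate numbers pair the samples. A fit with the replicate block left 0 collagens higher, 2 lower and 238 genes of all past the threshold. Without the 26 dim collagens 3 of 17 were higher and 3 lower, beside 13.9% of genes called. COL5A1 was among the 26 left out. Signs changed for some values that never passed. COL6A2 was -0.010 under median centring, and COL26A1 was 0.045 with averaged probe sets and 0.12 with x_at probe sets taken last. COL4A4 was -0.095 with averaged probe sets and -0.37 with its most variable one, which is not near 0. With 1 array left out the ranges were -0.034 to 0.056 for COL6A2, -0.082 to 0.056 for COL26A1, -0.17 to 0.084 for COL1A1, -0.065 to 0.047 for COL4A3 and -0.061 to 0.024 for COL6A5. Those of COL4A1 (-0.35 to 0.38) and COL4A2 (-0.42 to 0.37) changed sign and passed as lower only without siControl replicate 3. The cause was not tested. Low signals have no stated floor, which limits folds of dim chains such as COL13A1, COL15A1 and COL5A1.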

Other observations

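A probe set of COL4A3 that did not represent the gene stood apart on 1 array. It read 8.67 on siControl replicate 3, whereas siControl replicates 1 and 2 gave 6.47 and 6.58 and the siTIG1 group 6.09 to 6.18, while the gene's representative probe set read 8.11 to 8.34 over all arrays. A probe set of COL4A4 that did not represent the gene read 6.42 to 6.72 on the control arrays and 6.01 to 6.35 on the siTIG1 arrays, or -0.37 ± 0.12 (SE) in difference, which did not pass when all probe sets were fitted (limma adjusted p = 0.15). NID1, which encodes the basement membrane linker nidogen and was singled out after its value was seen, differed by 1.02 (limma adjusted p = 0.074), while the laminin chains LAMB3 and LAMB1 fell. The NID1 difference was 1.33 and passed once siControl replicate 3 was omitted (limma adjusted p = 3.8e-06).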
